A study of Arabidopsis thaliana with 18 samples.

Results

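The genes described here carry leaf starch synthesis and breakdown. They are 10 named loci, 5 of synthesis (*GPT2* AT1G61800, *APL3* AT4G39210, *APL1* AT5G19220, *APS1* AT5G48300 and *GBSS1* AT1G32900) and 5 of breakdown (*SEX1* AT1G10760, *BAM1* AT3G23920, *BAM3* AT4G17090, *BAM5* AT4G15210 and *DPE2* AT2G40840). The loci were named with earlier results of these data known. Comparisons of the 10 genes with all genes therefore describe them and are not a test. All of their probes on one-colour Agilent Arabidopsis (V4) microarrays were taken, which were 12 of 43603 distinct probes and 10 of 26716 genes with a probe. The data are 18 arrays of RNA from whole shoots of Arabidopsis seedlings, 3 arrays for each of 6 groups. The groups are *AO*pro(mut)-*AO* seedlings at 0d, that is, when N was about to be withdrawn, after 3 days without N, and after those 3 days followed by 24 h with 10 mM KNO3, and *AO*pro(wt)-*AO* seedlings at the same 3 stages. Both lines carry the *ao* knockout mutation *fin4-2* and a transgene for *AO*, L-aspartate oxidase of NAD synthesis, and they differ in the *AO* promoter, whose nitrate-responsive element was mutated in *AO*pro(mut)-*AO* shoots. Each genotype was represented by 1 transgenic line. The lines also differed in a stretch of chromosome 5, described below, whose genes were mostly higher in *AO*pro(mut)-*AO* shoots. Effects of the promoter and of any other difference between the lines cannot be told apart here. A biological replicate pooled the shoots of 2 or 3 seedlings, grown hydroponically in continuous light before the treatments. This growth lasted 17 days after 3 days of germination per the labels. The methods give a longer time of hydroponic growth and do not say whether it includes germination. Plants kept on N over the same days were not analysed here, so a change with a treatment includes any change with age. The p-values rest on the spread between these pooled replicates, with 1 estimate of it per probe shared by all 6 groups.

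Starch is built in the chloroplast from ADP-glucose. ADP-glucose pyrophosphorylase, made of small catalytic and large regulatory subunits, makes that substrate, and starch synthases, branching enzymes and isoamylases shape the granule. In breakdown, dikinases and phosphatases loosen the granule surface and beta-amylases release maltose, which leaves the plastid and is used in the cytosol. Leaf starch normally accumulates in the light and is used in the dark, and genes of both sides of the pathway are known to respond to sugar and N status.

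Levels are given as the log2 of the background-corrected probe signal relative to the 75th percentile of the same array, so that 0 is the signal below which 75% of the probes lie. Shoots of the groups are called starved after the 3 days without N and resupplied after the 24 h with KNO3. The level of 1 probe says nothing about that of another probe, because probes differ in how well they bind. A gene was represented by its brightest tested probe, and a gene passed when its adjusted p in limma was 0.05 or less, with Benjamini-Hochberg adjustment over all 29415 probes tested. All 12 probes of the 10 genes were well above background on all 18 arrays. Across the arrays, 72.6% to 76.1% of spots were well above background, the 75th percentile of signal lay between 2214 and 3111, and no spot was saturated. The arrays lay on 5 slides, with the 3 arrays of each group on 3 different slides. *AO* itself was lower in *AO*pro(mut)-*AO* shoots by a log2 fold change of -2.85 at 0d, -2.38 after starvation and -2.12 after resupply, which goes with the line labels. The second *AO* probe gave smaller differences of -1.40, -0.73 and -0.82. The 5 shoot markers (*RBCS1A*, *RCA*, *CAB1*, *CA1*, *GLK2*) were well above background on all 18 arrays. Of the root markers described here, *EXPA7*, *IRT1* and *PRP3* were not above background in any whole group, *CASP1* and *COBL9* had group means between -7.48 and -4.99, and *PYK10* lay between 1.82 and 2.82.

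The 10 genes differed in how much their levels moved over the 6 groups. The group means of *BAM5* spanned 2.94 on the log2 scale, those of *GPT2* 2.68, those of *APL3* 1.61 and those of *GBSS1* 1.20. The spans of *APL1*, *BAM1*, *DPE2*, *SEX1* and *BAM3* were between 0.40 and 0.58, and that of *APS1* was 0.21. The SD between replicates within a group had a median over the 6 groups of 0.36 for *BAM5*, 0.29 for *GPT2*, 0.10 for *APL3*, 0.35 for *GBSS1* and 0.07 for *APS1*. For *APS1*, every group overlapped its neighbour in the order of means.

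**Figure D1:**
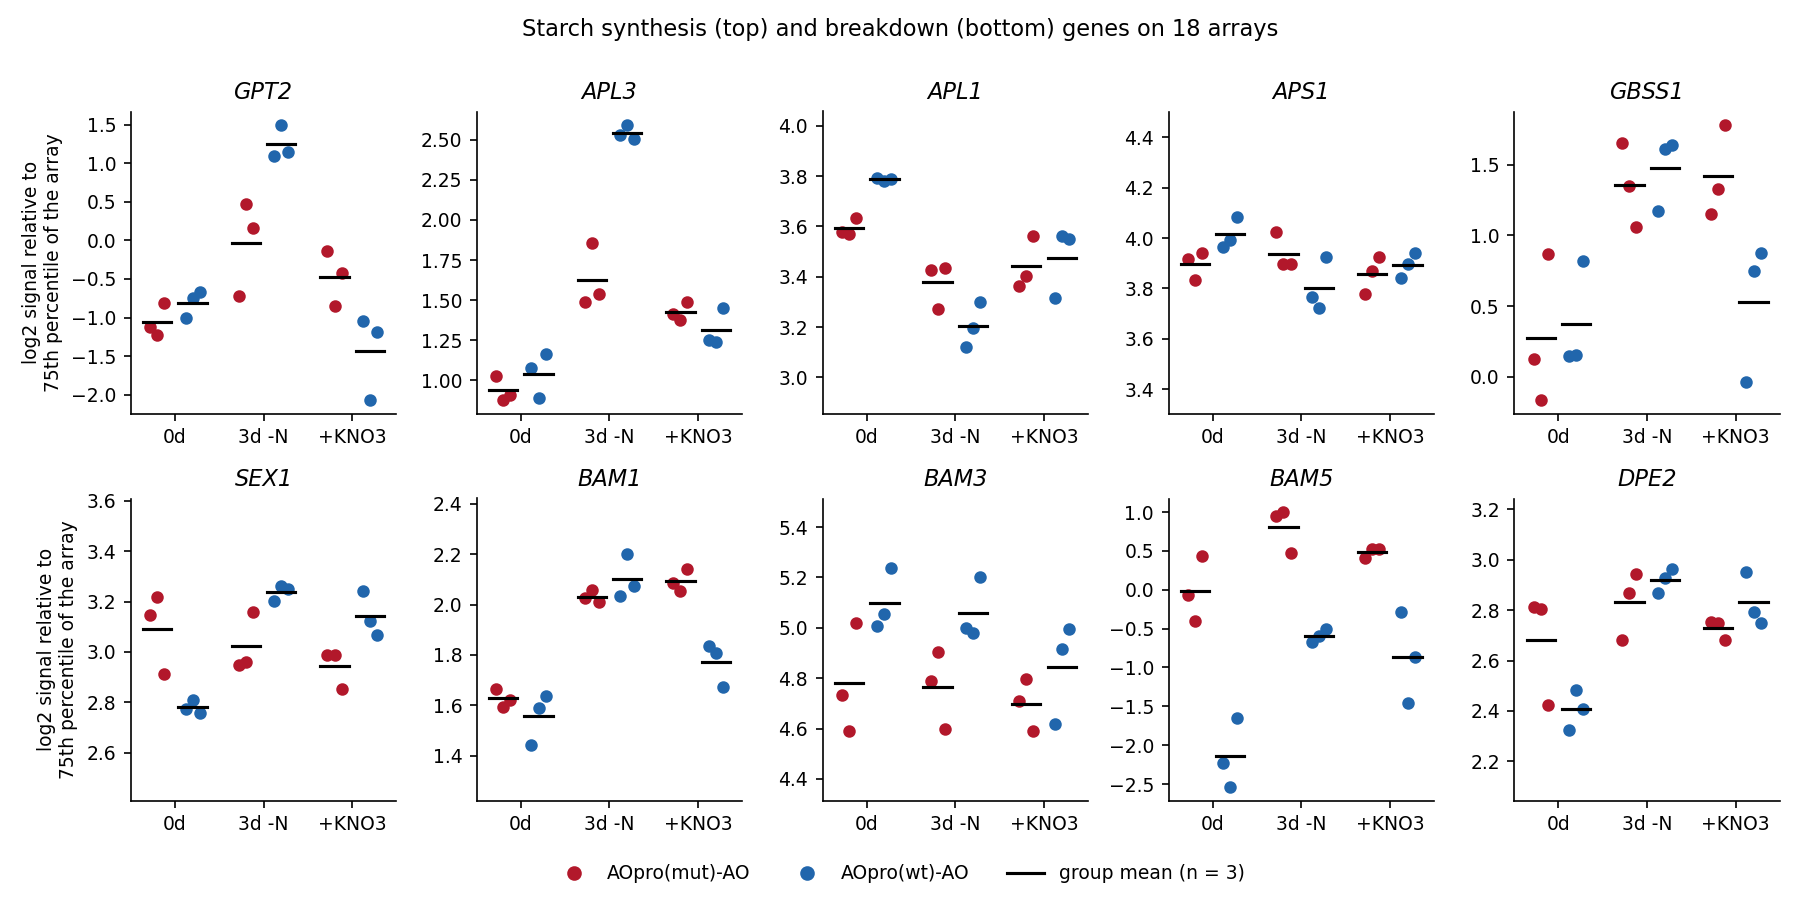
Normalized log2 signal (y axis, 0 is the 75th percentile of the array) of the 10 starch genes on each of the 18 arrays, by stage (x axis), with *AO*pro(mut)-*AO* shoots in red and *AO*pro(wt)-*AO* shoots in blue, and the mean of 3 arrays as a black line; each panel has its own y scale. *GPT2* and *APL3* are highest in starved *AO*pro(wt)-*AO* shoots, and *BAM5* is higher in *AO*pro(mut)-*AO* shoots than in *AO*pro(wt)-*AO* shoots at each stage.

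*GPT2* encodes the sugar-inducible translocator that brings glucose 6-phosphate into the plastid, where it can feed ADP-glucose synthesis. Before N starvation, its level was -1.12, -1.23 and -0.81 on the *AO*pro(mut)-*AO* arrays, against -1.01, -0.74 and -0.67 on the *AO*pro(wt)-*AO* arrays. After 3 days without N, it was -0.72, 0.48 and 0.16 in *AO*pro(mut)-*AO* shoots, against 1.10, 1.50 and 1.14 in *AO*pro(wt)-*AO* shoots. After KNO3 resupply, it was -0.14, -0.85 and -0.43 in *AO*pro(mut)-*AO* shoots, against -1.05, -2.07 and -1.19 in *AO*pro(wt)-*AO* shoots. The lines overlapped at 0d, and did not overlap at the later stages, where *AO*pro(mut)-*AO* shoots were below *AO*pro(wt)-*AO* shoots when starved and above them when resupplied. In the order of the 6 group means, starved *AO*pro(wt)-*AO* shoots were highest and separate from the rest, and each of the other groups overlapped its neighbour.

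With N starvation *GPT2* rose in both lines, to 2.04 times its 0d level in *AO*pro(mut)-*AO* shoots (log2 fold change 1.03, SE 0.30, adjusted p = 0.0145, limma) and to 4.15 times in *AO*pro(wt)-*AO* shoots (2.05, adjusted p = 5.2e-05, limma). With resupply the change in *AO*pro(mut)-*AO* shoots was -0.45 (95% CI -1.09 to 0.20, adjusted p = 0.293, limma), which did not pass. *GPT2* fell 6.42-fold in *AO*pro(wt)-*AO* shoots (log2 fold change -2.68, 95% CI -3.33 to -2.04, adjusted p = 1.25e-05, limma). The resupply change differed between the lines by 2.24 (SE 0.42, adjusted p = 0.00956 for the interaction, limma), while the starvation change differed by -1.03 without passing (95% CI -1.94 to -0.12, adjusted p = 0.151, limma). The line difference was -1.27 when starved (adjusted p = 0.00276, limma) and 0.96 when resupplied (adjusted p = 0.0173, limma). The second probe of *GPT2* gave -1.41 and 1.01 for those line differences, and 2.42 for the resupply interaction. Without replicate 2 or replicate 3 of starved *AO*pro(mut)-*AO* shoots the rise in that line no longer passed (log2 fold change 0.77, adjusted p = 0.0748, and 0.94, adjusted p = 0.0525, limma), and the only slide that held both groups gave 0.40. The line difference after resupply was lost without replicate 2 of resupplied *AO*pro(wt)-*AO* shoots (0.65, adjusted p = 0.0902, limma) or replicate 1 of resupplied *AO*pro(mut)-*AO* shoots (0.80, adjusted p = 0.0727, limma), and in a fit of only the 2 groups compared (0.96, adjusted p = 0.0565, limma).

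*APL3* encodes a sugar-inducible large subunit of ADP-glucose pyrophosphorylase. Its level at 0d was 1.02, 0.88 and 0.91 in *AO*pro(mut)-*AO* shoots, against 1.07, 0.89 and 1.16 in *AO*pro(wt)-*AO* shoots. After N starvation it was 1.49, 1.85 and 1.54 in *AO*pro(mut)-*AO* shoots, against 2.53, 2.59 and 2.51 in *AO*pro(wt)-*AO* shoots. After resupply it was 1.41, 1.38 and 1.49 in *AO*pro(mut)-*AO* shoots, against 1.25, 1.24 and 1.45 in *AO*pro(wt)-*AO* shoots. The lines overlapped at 0d and after resupply, and were apart only when starved, with every *AO*pro(mut)-*AO* array below every *AO*pro(wt)-*AO* array. The 2 resupplied groups overlapped each other and lay above both 0d groups and below both starved groups.

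*APL3* rose with N starvation to 1.62 times its 0d level in *AO*pro(mut)-*AO* shoots (log2 fold change 0.69, SE 0.09, adjusted p = 0.000106, limma) and to 2.83 times in *AO*pro(wt)-*AO* shoots (1.50, adjusted p = 7.02e-08, limma). The rise was smaller in *AO*pro(mut)-*AO* shoots (interaction -0.81, SE 0.13, adjusted p = 0.00524, limma). With resupply the change was -0.20 in *AO*pro(mut)-*AO* shoots, which did not pass (95% CI -0.40 to -0.001, adjusted p = 0.127, limma), and *APL3* fell 2.34-fold in *AO*pro(wt)-*AO* shoots (-1.23, adjusted p = 5.8e-07, limma). The resupply changes differed by 1.03 (SE 0.13, adjusted p = 0.00133, limma). *APL3* remained above its 0d level after resupply in *AO*pro(mut)-*AO* shoots by 0.49 (adjusted p = 0.00179, limma). The same difference was 0.27 in *AO*pro(wt)-*AO* shoots (adjusted p = 0.0324, limma), and was lost without replicate 1 of the 0d group (0.29, adjusted p = 0.0575, limma), replicate 2 of the 0d group (0.20, adjusted p = 0.146, limma) or replicate 3 of the resupplied group (0.20, adjusted p = 0.122, limma). It was also lost with normexp background correction (0.26, adjusted p = 0.104, limma), with the slide as a block (0.29, adjusted p = 0.0886, limma) and in a fit of only the 2 groups compared (0.27, adjusted p = 0.0842, limma).

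The other ADP-glucose pyrophosphorylase subunits moved less with starvation, and *APL1* moved in the other direction in both lines. *APL1*, the main leaf large subunit, had levels of 3.43, 3.27 and 3.43 in starved *AO*pro(mut)-*AO* shoots, against 3.58, 3.57 and 3.63 in the same line at 0d. The levels in *AO*pro(wt)-*AO* shoots were 3.12, 3.20 and 3.30 when starved, against 3.79, 3.78 and 3.79 at 0d. The starved arrays lay below the 0d arrays in both lines. *APL1* fell by 0.22 on the log2 scale in *AO*pro(mut)-*AO* shoots (adjusted p = 0.0301, limma) and by 0.58 in *AO*pro(wt)-*AO* shoots (adjusted p = 1.52e-05, limma), and the interaction was 0.37 (adjusted p = 0.0479, limma). The interaction was lost in 11 of 18 fits with 1 array left out (0.32 to 0.37, adjusted p of 0.0517 to 0.115). It was also lost under quantile normalization (0.29, adjusted p = 0.0703, limma), under normexp (0.43, adjusted p = 0.111, limma) and with no filter on dim probes (0.37, adjusted p = 0.0688, limma). The fall in *AO*pro(mut)-*AO* shoots was lost without any one of the 3 replicates at 0d (-0.22, -0.23 and -0.20, adjusted p of 0.0519 to 0.0873, limma) and without starved replicate 2 (-0.16, adjusted p = 0.131, limma), and was smaller under quantile normalization (-0.10, adjusted p = 0.255, limma) and normexp (-0.10, adjusted p = 0.484, limma). Under normexp the median of all genes in that comparison was also -0.10. In *AO*pro(wt)-*AO* shoots, where *APL3* fell with resupply, *APL1* rose by 0.27 (adjusted p = 0.00774, limma) and stayed below 0d by 0.31 (adjusted p = 0.00404, limma). That rise did not pass under quantile normalization (0.13, adjusted p = 0.113, limma), under normexp (0.20, adjusted p = 0.135, limma) or in a fit of only the 2 groups compared (0.27, adjusted p = 0.0624, limma). The line differences of *APL1* were -0.19 at 0d (adjusted p = 0.0527, limma) and 0.17 when starved (adjusted p = 0.0635, limma), and both passed with the slide as a block (-0.17, adjusted p = 0.0434, and 0.17, adjusted p = 0.023, limma).

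*APS1*, the small catalytic subunit (*ADG1* in RefSeq), had group means between 3.80 and 4.01. With starvation its change was 0.04 in *AO*pro(mut)-*AO* shoots (95% CI -0.09 to 0.18), and it fell by 0.21 on the log2 scale in *AO*pro(wt)-*AO* shoots (adjusted p = 0.0094, limma). The fall in *AO*pro(wt)-*AO* shoots became 0.02 (adjusted p = 0.753, limma) when the arrays were quantile normalized, and the change in *AO*pro(mut)-*AO* shoots then passed (0.16, adjusted p = 0.0205, limma). The fall was the only one of the passing changes of the 10 genes that turned its sign in any alternative run.

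*GBSS1*, the granule-bound starch synthase that makes amylose, had wide replicate spread. Its level at 0d was 0.12, -0.16 and 0.87 in *AO*pro(mut)-*AO* shoots, against 0.15, 0.16 and 0.82 in *AO*pro(wt)-*AO* shoots. When starved, it was 1.65, 1.35 and 1.06 in *AO*pro(mut)-*AO* shoots, against 1.17, 1.61 and 1.64 in *AO*pro(wt)-*AO* shoots. After resupply it was 1.15, 1.33 and 1.78 in *AO*pro(mut)-*AO* shoots, against -0.03, 0.75 and 0.88 in *AO*pro(wt)-*AO* shoots. The lines overlapped at 0d and when starved, and were apart after resupply, where *AO*pro(mut)-*AO* shoots were higher. The 6 groups fell into a high set, both starved groups and resupplied *AO*pro(mut)-*AO* shoots, and a low set, both 0d groups and resupplied *AO*pro(wt)-*AO* shoots, with no overlap between the sets.

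*GBSS1* rose with starvation by a log2 fold change of 1.08 in *AO*pro(mut)-*AO* shoots (SE 0.30, adjusted p = 0.0109, limma) and 1.10 in *AO*pro(wt)-*AO* shoots (adjusted p = 0.00584, limma). With resupply its change was 0.06 in *AO*pro(mut)-*AO* shoots (95% CI -0.57 to 0.70, adjusted p = 0.895, limma), and it fell by 0.94 on the log2 scale in *AO*pro(wt)-*AO* shoots (adjusted p = 0.0182, limma). The difference between these changes was 1.01 and did not pass (95% CI 0.11 to 1.91, adjusted p = 0.175, limma). Resupplied *AO*pro(mut)-*AO* shoots were 0.89 above resupplied *AO*pro(wt)-*AO* shoots (adjusted p = 0.0257, limma) and 1.14 above their own 0d level (adjusted p = 0.0108, limma). Single arrays decided several of these calls. The line difference was lost without resupplied *AO*pro(mut)-*AO* replicate 3 (0.71, adjusted p = 0.106, limma) or resupplied *AO*pro(wt)-*AO* replicate 1 (0.61, adjusted p = 0.124, limma), and in a fit of only the 2 groups compared (0.89, adjusted p = 0.0519, limma). The difference from 0d was also lost without resupplied *AO*pro(mut)-*AO* replicate 3 (0.96, adjusted p = 0.0527, limma). The rise in *AO*pro(mut)-*AO* shoots was lost without 0d replicate 2 (0.86, adjusted p = 0.0522, limma). The fall in *AO*pro(wt)-*AO* shoots was lost without resupplied replicate 1 (-0.66, adjusted p = 0.0844, limma), starved replicate 2 (-0.88, adjusted p = 0.0571, limma) or starved replicate 3 (-0.86, adjusted p = 0.0599, limma).

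Of the breakdown genes, *BAM5* moved most. It encodes a beta-amylase found outside the plastid, in the phloem, which accounts for most of the beta-amylase activity of leaf extracts. At 0d its level was -0.06, -0.41 and 0.44 in *AO*pro(mut)-*AO* shoots, against -2.22, -2.54 and -1.65 in *AO*pro(wt)-*AO* shoots. When starved it was 0.94, 1.00 and 0.47 in *AO*pro(mut)-*AO* shoots, against -0.68, -0.60 and -0.50 in *AO*pro(wt)-*AO* shoots. After resupply it was 0.40, 0.53 and 0.52 in *AO*pro(mut)-*AO* shoots, against -0.29, -1.46 and -0.86 in *AO*pro(wt)-*AO* shoots. The lines did not overlap at any stage, and all 3 *AO*pro(wt)-*AO* group means lay below all 3 *AO*pro(mut)-*AO* group means.

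*BAM5* was 4.37-fold higher in *AO*pro(mut)-*AO* shoots than in *AO*pro(wt)-*AO* shoots at 0d (log2 fold change 2.13, SE 0.28, adjusted p = 3.54e-05, limma). The differences were 1.39 when starved (adjusted p = 0.000843, limma) and 1.35 after resupply (adjusted p = 0.0012, limma). Within the slides that held both lines, the difference was 2.09 to 2.16 at 0d, 0.97 to 1.62 when starved and 0.70 to 1.38 after resupply, and the second probe of *BAM5* gave 2.05, 1.34 and 1.38. With starvation *BAM5* rose by 0.81 in *AO*pro(mut)-*AO* shoots (adjusted p = 0.0323, limma) and by 1.55 in *AO*pro(wt)-*AO* shoots (adjusted p = 0.000308, limma), and the interaction did not pass (-0.73, 95% CI -1.58 to 0.11, adjusted p = 0.262, limma). The rise in *AO*pro(mut)-*AO* shoots was lost without 0d replicate 1 (0.79, adjusted p = 0.0793, limma), 0d replicate 2 (0.62, adjusted p = 0.13, limma), starved replicate 1 (0.74, adjusted p = 0.0861, limma) or starved replicate 2 (0.72, adjusted p = 0.105, limma), with the slide as a block (0.94, adjusted p = 0.0718, limma) and with the second probe (0.72, adjusted p = 0.0614, limma). Resupply changed *BAM5* by -0.32 in *AO*pro(mut)-*AO* shoots (95% CI -0.92 to 0.28) and by -0.28 in *AO*pro(wt)-*AO* shoots (95% CI -0.88 to 0.32), and neither passed. After resupply *BAM5* was still 1.27 above 0d in *AO*pro(wt)-*AO* shoots (adjusted p = 0.00271, limma), and this difference was 0.19 within the only slide that held both groups.

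*BAM1*, a plastid beta-amylase known from guard cells and osmotic stress, moved with small replicate spread. In *AO*pro(mut)-*AO* shoots its level was 2.03, 2.06 and 2.01 when starved, against 1.67, 1.60 and 1.62 at 0d. The level in *AO*pro(wt)-*AO* shoots was 2.03, 2.20 and 2.07 when starved, against 1.44, 1.59 and 1.64 at 0d. After resupply it was 2.09, 2.06 and 2.14 in *AO*pro(mut)-*AO* shoots, against 1.84, 1.81 and 1.67 in *AO*pro(wt)-*AO* shoots. The lines overlapped at 0d and when starved, and not after resupply. *BAM1* rose with starvation by 0.40 in *AO*pro(mut)-*AO* shoots (adjusted p = 0.000191, limma) and by 0.55 in *AO*pro(wt)-*AO* shoots (adjusted p = 5.24e-06, limma). With resupply its change was 0.06 in *AO*pro(mut)-*AO* shoots (95% CI -0.07 to 0.19), and it fell by 0.33 on the log2 scale in *AO*pro(wt)-*AO* shoots (adjusted p = 0.000512, limma). These changes differed by 0.39 (SE 0.09, adjusted p = 0.0177, limma), a call lost under normexp (0.41, adjusted p = 0.159, limma). Resupplied *AO*pro(mut)-*AO* shoots were 1.25-fold above resupplied *AO*pro(wt)-*AO* shoots (log2 fold change 0.32, adjusted p = 0.000541, limma). Both lines were above their 0d level after resupply, by 0.47 in *AO*pro(mut)-*AO* shoots (adjusted p = 0.000127, limma) and by 0.21 in *AO*pro(wt)-*AO* shoots (adjusted p = 0.0117, limma), where the call was lost without 0d replicate 1 (0.16, adjusted p = 0.0625, limma), under normexp (0.20, adjusted p = 0.134, limma) and in a fit of only the 2 groups compared (0.21, adjusted p = 0.0898, limma).

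*SEX1* encodes glucan, water dikinase, which phosphorylates the granule surface, and its line difference changed direction between stages. At 0d its level was 3.14, 3.22 and 2.91 in *AO*pro(mut)-*AO* shoots, against 2.77, 2.81 and 2.76 in *AO*pro(wt)-*AO* shoots. When starved it was 2.95, 2.96 and 3.16 in *AO*pro(mut)-*AO* shoots, against 3.20, 3.26 and 3.25 in *AO*pro(wt)-*AO* shoots. After resupply it was 2.99, 2.99 and 2.85 in *AO*pro(mut)-*AO* shoots, against 3.24, 3.12 and 3.07 in *AO*pro(wt)-*AO* shoots. The lines did not overlap at any stage, with *AO*pro(mut)-*AO* shoots higher at 0d and lower at the later stages. The line differences were 0.31 at 0d (adjusted p = 0.00628, limma), -0.21 when starved (adjusted p = 0.0337, limma) and -0.20 after resupply (adjusted p = 0.049, limma). Leaving out 1 array ended the call after resupply in 14 of 18 fits (adjusted p of 0.0517 to 0.173), and the call in starved shoots was lost without *AO*pro(mut)-*AO* replicate 1 or 2 or any one of the 3 *AO*pro(wt)-*AO* arrays (-0.23 to -0.18, adjusted p of 0.0513 to 0.121). Under normexp the call in starved shoots was lost (-0.16, adjusted p = 0.268, limma). The call after resupply was lost under quantile normalization (-0.20, adjusted p = 0.0936), normexp (-0.22, adjusted p = 0.124), no filter on dim probes (-0.20, adjusted p = 0.0656), the replicate block (-0.20, adjusted p = 0.0581) and the fit of only the 2 groups (-0.20, adjusted p = 0.0882, limma throughout). With starvation the change of *SEX1* was -0.07 in *AO*pro(mut)-*AO* shoots (95% CI -0.24 to 0.10), and it rose by 0.46 in *AO*pro(wt)-*AO* shoots (adjusted p = 0.000195, limma). These changes differed by -0.53 (SE 0.11, adjusted p = 0.0157, limma), a call lost under normexp (-0.46, adjusted p = 0.111, limma). After resupply *SEX1* stayed 0.36 above 0d in *AO*pro(wt)-*AO* shoots (adjusted p = 0.00227, limma), and its resupply change of -0.09 there passed only under quantile normalization (-0.24, adjusted p = 0.0458, limma).

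*DPE2*, the cytosolic glucanotransferase that uses the exported maltose, had levels of 2.81, 2.80 and 2.42 in *AO*pro(mut)-*AO* shoots at 0d, against 2.32, 2.48 and 2.41 in *AO*pro(wt)-*AO* shoots, which overlapped. The line difference at 0d was 0.28 (adjusted p = 0.0369, limma), was 0.49 and 0.02 in the 2 slides that held both lines, and was lost without *AO*pro(mut)-*AO* replicate 1 or 2 or *AO*pro(wt)-*AO* replicate 1 or 3 (0.21 to 0.28, adjusted p of 0.0799 to 0.15). It was also lost with the slide as a block (0.26, adjusted p = 0.0615, limma), under quantile normalization (0.28, adjusted p = 0.0531, limma), with no filter on dim probes (0.28, adjusted p = 0.0513, limma) and in a fit of only the 2 groups compared (0.28, adjusted p = 0.119, limma). In *AO*pro(mut)-*AO* shoots its starvation change was 0.15 (95% CI -0.06 to 0.36). In *AO*pro(wt)-*AO* shoots *DPE2* rose with starvation by 0.51 (adjusted p = 0.000398, limma) and stayed 0.43 above 0d after resupply (adjusted p = 0.00315, limma), and the interaction with starvation was -0.36 (adjusted p = 0.116, limma). *BAM3*, the main plastid beta-amylase of the mesophyll (*CT-BMY* in RefSeq), passed in none of the 11 contrasts. Its level lay between 4.59 and 5.02 on the 9 *AO*pro(mut)-*AO* arrays and between 4.62 and 5.24 on the 9 *AO*pro(wt)-*AO* arrays, and its line differences were -0.32 at 0d (adjusted p = 0.0567, limma), -0.30 when starved (adjusted p = 0.0588, limma) and -0.14 after resupply. The *BAM3* differences at 0d and when starved passed under quantile normalization (-0.35, adjusted p = 0.0229, and -0.45, adjusted p = 0.00316, limma), and that in starved shoots also with the slide as a block (-0.30, adjusted p = 0.0417, limma). The resupply change of *BAM3* was -0.22 in *AO*pro(wt)-*AO* shoots (adjusted p = 0.164, limma) and passed under quantile normalization (-0.43, adjusted p = 0.00502, limma).

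**Figure D2:**
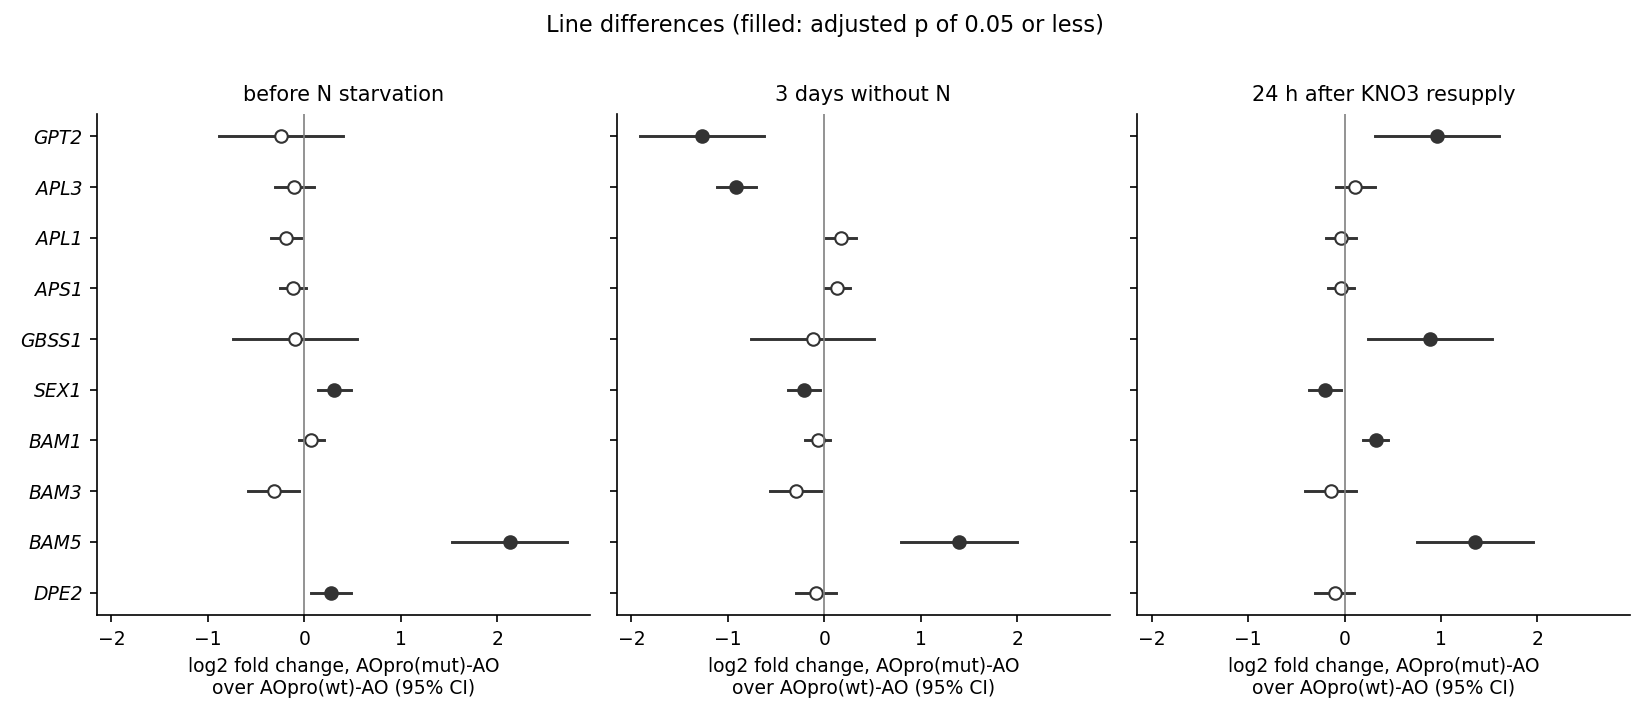
Log2 fold change of *AO*pro(mut)-*AO* over *AO*pro(wt)-*AO* shoots (x axis) with its 95% confidence interval for the 10 starch genes at 3 stages; filled points have an adjusted p of 0.05 or less. *BAM5* is at 2.13, 1.39 and 1.35 over the stages, and *GPT2* lies at -1.27 in starved and 0.96 in resupplied plants.

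Counted over the 10 genes, 3 passed between the lines at 0d, all higher in *AO*pro(mut)-*AO* shoots and all of breakdown (*BAM5*, *SEX1*, *DPE2*), where 38.7% of all tested genes passed, 19.2% higher and 19.5% lower. The *DPE2* call was lost in several other fits, and the other breakdown genes *BAM1* (0.07) and *BAM3* (-0.32) did not pass. Of 20 further genes listed under breakdown, 6 passed at 0d, 4 higher and 2 lower. When starved 4 passed, *BAM5* higher and *GPT2*, *APL3* and *SEX1* lower, against 52.1% of all genes (26.3% higher, 25.7% lower). After resupply 5 passed, *BAM5*, *GPT2*, *GBSS1* and *BAM1* higher and *SEX1* lower, against 47.4% of all genes (25.6% higher, 21.8% lower). The median log2 fold change of the 10 genes was -0.10, -0.11 and 0.04 at the 3 stages, and that of all tested genes was -0.01, -0.001 and 0.01. Counted in either direction, the shares of the 10 genes were near or under the shares of all genes, while by direction they lay on both sides of them. With a 2-fold minimum added 1, 2 and 1 of the 10 passed, against 5.77%, 7.18% and 6.9% of all genes, which are larger shares but rest on few genes.

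With N starvation 6 of the 10 genes passed in *AO*pro(mut)-*AO* shoots, 5 higher (*GPT2*, *APL3*, *GBSS1*, *BAM1*, *BAM5*) and 1 lower (*APL1*), where 41.4% of all genes passed, 17.8% higher and 23.6% lower. In *AO*pro(wt)-*AO* shoots 9 passed, 7 higher and 2 lower, which was every one but *BAM3*, where 59.9% of all genes passed, 28% higher and 31.9% lower. With a 2-fold minimum added, 2 of the 10 genes passed in *AO*pro(mut)-*AO* shoots and 4 in *AO*pro(wt)-*AO* shoots, against 2.44% and 4.75% of all genes. Of the 5 synthesis genes, the 3 that rose in *AO*pro(wt)-*AO* shoots rose in *AO*pro(mut)-*AO* shoots too. Of the 5 breakdown genes, *BAM1* and *BAM5* rose in both lines, and *SEX1* and *DPE2* passed in *AO*pro(wt)-*AO* shoots. The arrays did not overlap for 6 of the 10 genes in *AO*pro(mut)-*AO* shoots and 9 of 10 in *AO*pro(wt)-*AO* shoots, against 53% and 69.2% of all genes. The median starvation change of the 10 genes was 0.28 in *AO*pro(mut)-*AO* shoots and 0.53 in *AO*pro(wt)-*AO* shoots, beside -0.005 and -0.01 for all genes. The starvation change differed between the lines for 3 of the 10 genes (*APL3*, *SEX1*, *APL1*), where 7.75% of all genes passed, and for each of these it was nearer 0 in *AO*pro(mut)-*AO* shoots.

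With KNO3 resupply 0 of the 10 genes passed in *AO*pro(mut)-*AO* shoots in limma, where 27.4% of all genes passed (14.6% higher, 12.9% lower). *APL3* alone was under an unadjusted p of 0.05 there, and the largest change was that of *GPT2*, -0.45. In *AO*pro(wt)-*AO* shoots 5 of 10 passed, where 48.3% of all genes passed, 23.3% higher and 25% lower. *GPT2*, *APL3*, *GBSS1* and *BAM1* fell and *APL1* rose. With a 2-fold minimum added, 0 passed in *AO*pro(mut)-*AO* shoots and 2 in *AO*pro(wt)-*AO* shoots, against 1.44% and 4.22% of all genes. The resupply change differed between the lines for *GPT2*, *APL3* and *BAM1*, where 6.15% of all genes passed. Compared with 0d, 3 of the 10 genes were higher after resupply in *AO*pro(mut)-*AO* shoots (*GBSS1*, *APL3*, *BAM1*), where 32.5% of all genes passed (14.3% higher). In *AO*pro(wt)-*AO* shoots 6 passed, 5 higher (*APL3*, *BAM1*, *BAM5*, *DPE2*, *SEX1*) and 1 lower (*APL1*). There 42.4% of all genes passed, 3588 higher and 5337 lower of 21059. With the 2-fold minimum 1 passed in each line, against 3.37% and 3.38% of all genes. *GPT2*, the gene with the largest resupply fall, was 0.58 from 0d after resupply in *AO*pro(mut)-*AO* shoots (95% CI -0.06 to 1.22) and -0.63 in *AO*pro(wt)-*AO* shoots (95% CI -1.27 to 0.01), and neither passed. The starvation and resupply comparisons share the starved arrays, and each interaction shares arrays with the comparisons it is made of.

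**Figure D3:**
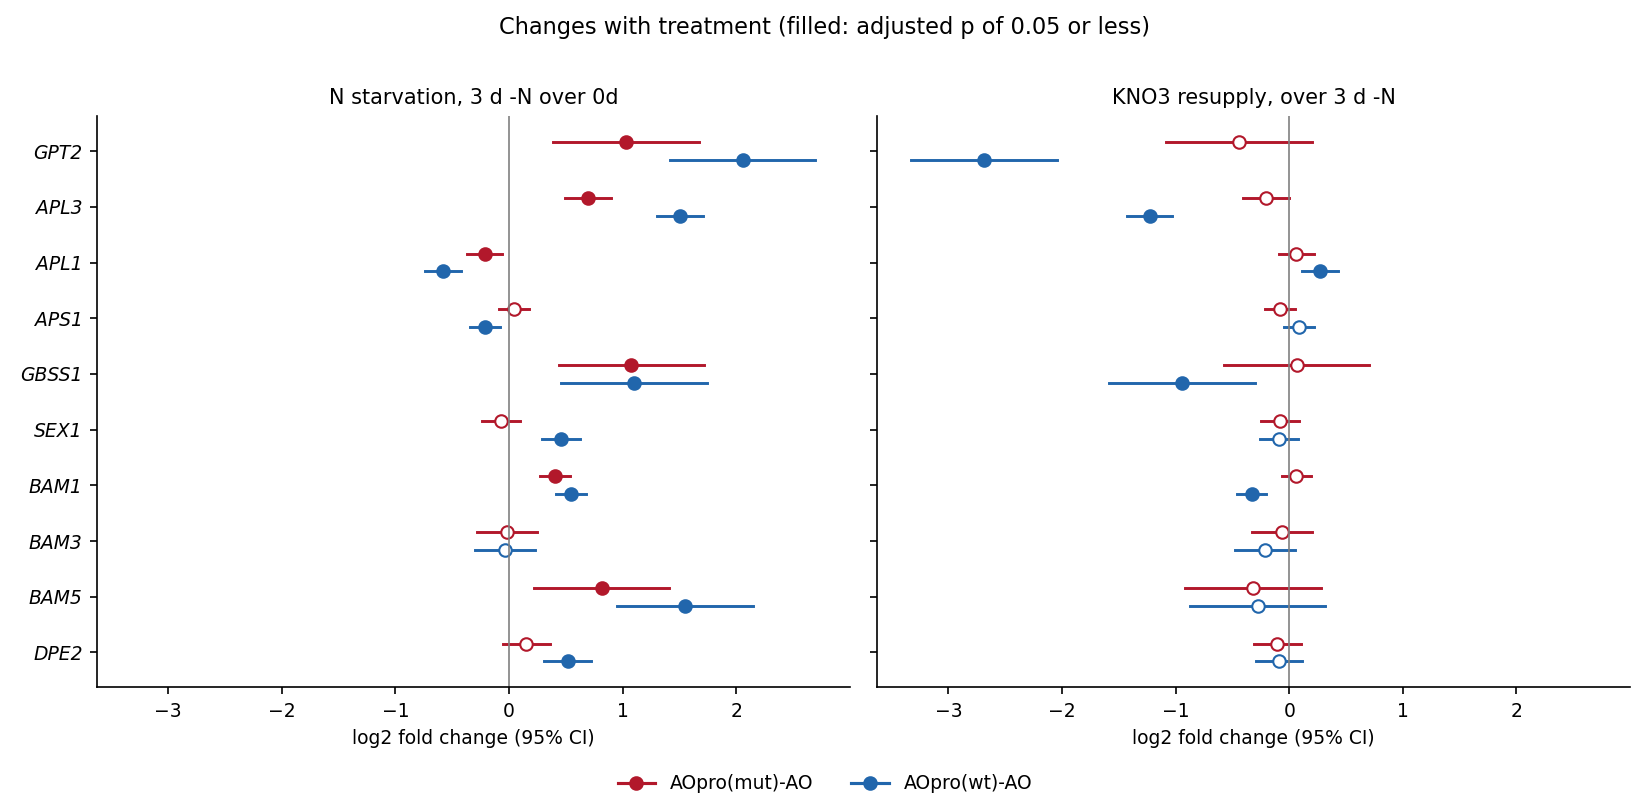
Log2 fold change (x axis) with its 95% confidence interval of the 10 starch genes with N starvation (left, starved over 0d) and with KNO3 resupply (right, resupplied over starved), in *AO*pro(mut)-*AO* shoots (red, above) and *AO*pro(wt)-*AO* shoots (blue, below); filled points have an adjusted p of 0.05 or less. With resupply no red point is filled, and *GPT2* is at -0.45 in *AO*pro(mut)-*AO* shoots against -2.68 in *AO*pro(wt)-*AO* shoots.

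Some values of the tissue moved with these changes. The mean log2 level of the 5 shoot markers on an array was 6.42 to 6.65 in starved *AO*pro(mut)-*AO* shoots, against 6.18 to 6.26 in starved *AO*pro(wt)-*AO* shoots, the lowest of the 6 groups. At 0d it was 6.39 to 6.62 in *AO*pro(mut)-*AO* shoots and 6.48 to 6.65 in *AO*pro(wt)-*AO* shoots, and after resupply it was 6.39 to 6.61 in *AO*pro(mut)-*AO* shoots and 6.35 to 6.49 in *AO*pro(wt)-*AO* shoots. Of those markers *GLK2* rose by 0.37 with starvation in *AO*pro(mut)-*AO* shoots, and *CA1* (-0.72) and *GLK2* (-0.33) fell in *AO*pro(wt)-*AO* shoots. With resupply *CA1* (0.38) and *GLK2* (0.33) rose in *AO*pro(wt)-*AO* shoots, and *GLK2* was higher in *AO*pro(mut)-*AO* shoots than in *AO*pro(wt)-*AO* shoots when starved (0.61) and after resupply (0.38). Among the root markers *PYK10* fell by 1.01 on the log2 scale with starvation in *AO*pro(wt)-*AO* shoots, where *PYK10* (-0.66) and *COBL9* (-1.39) were also below 0d after resupply. *COBL9* was well above background on only 1 of the 3 resupplied *AO*pro(wt)-*AO* arrays, so the size of its difference is uncertain. The part of the shoot and root markers in the changes of the starch genes was not tested. In whole shoots, fewer cells of a type and less RNA per cell cannot be told apart.

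A wider list held 35 more genes, 15 listed under synthesis and 20 under breakdown, all tested. The 20 include further members of the beta-amylase family, and the part of each listed gene in leaf starch was not tested. With N starvation 12 of them passed in *AO*pro(mut)-*AO* shoots, 4 higher and 8 lower, and 17 passed in *AO*pro(wt)-*AO* shoots, 10 higher and 7 lower, where 41.4% and 59.9% of all genes passed. With resupply 4 passed in *AO*pro(mut)-*AO* shoots, 1 higher and 3 lower, and 14 in *AO*pro(wt)-*AO* shoots, 6 higher and 8 lower, where 27.4% and 48.3% of all genes passed. Between the lines 13 passed at 0d, 18 when starved and 17 after resupply, where 38.7%, 52.1% and 47.4% of all genes passed. The starvation interaction passed for 4 of the 35 genes and the resupply interaction for 2, where 7.75% and 6.15% of all genes passed. Their median log2 fold changes with starvation were 0.003 in *AO*pro(mut)-*AO* shoots and 0.005 in *AO*pro(wt)-*AO* shoots, nearer to those of all genes than the medians of the 10 genes were.

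Of the 35 genes, 4 passed with at least a 2-fold change in some contrast, all listed under breakdown. *SEX4*, the phosphoglucan phosphatase that works after *SEX1*, had a mean of 4.01 in starved *AO*pro(mut)-*AO* shoots against 3.60 at 0d, and of 4.31 in starved *AO*pro(wt)-*AO* shoots against 3.19 at 0d. Its rise of 1.13 in *AO*pro(wt)-*AO* shoots (adjusted p = 1.16e-07, limma) was larger than that in *AO*pro(mut)-*AO* shoots (interaction -0.71, adjusted p = 0.0033, limma). *ISA3*, the debranching isoamylase of breakdown, rose by 1.06 with starvation in *AO*pro(wt)-*AO* shoots (adjusted p = 3.13e-05, limma), with an interaction of -0.79 (adjusted p = 0.0365, limma). *AMY1*, an alpha-amylase, rose with starvation by 1.07 in *AO*pro(mut)-*AO* shoots (adjusted p = 0.00644, limma) and by 1.80 in *AO*pro(wt)-*AO* shoots (adjusted p = 6.85e-05, limma). When starved *AMY1* was lower in *AO*pro(mut)-*AO* shoots than in *AO*pro(wt)-*AO* shoots (log2 fold change -1.17, adjusted p = 0.00251, limma), and its interaction did not pass (-0.73, adjusted p = 0.25, limma).

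*BAM4*, a plastid protein of the beta-amylase family, was 1.02 higher in *AO*pro(mut)-*AO* shoots than in *AO*pro(wt)-*AO* shoots at 0d (adjusted p = 5.72e-09, limma), 0.92 when starved and 0.98 after resupply. *GPT1*, the other plastid glucose 6-phosphate translocator, differed by 0.88, 0.85 and 0.97 at the 3 stages, and *PGM1*, plastid phosphoglucomutase, by 0.86, 0.98 and 0.78. These 3 genes lie in a stretch of chromosome 5 from AT5G49520 to AT5G61610 in which 924 of 1033 tested genes (89.4%) were higher in *AO*pro(mut)-*AO* shoots at 0d, with a median log2 fold change of 0.92, against 19.2% higher of all tested genes. The bounds of the stretch were taken from earlier results of these same data, so its share describes the stretch and is not a test of it. None of the 10 genes lies in that stretch, and *BAM5* is on chromosome 4. Whether the raised stretch has a part in the levels of the starch genes, inside or outside it, was not tested. The other interactions that passed were of synthesis genes, named after their values were seen. *BE3*, a branching enzyme, differed between the lines in its starvation change (-0.58, adjusted p = 0.00915, limma), as did *PGI1*, plastid phosphoglucose isomerase (0.33, adjusted p = 0.0213, limma). The resupply change differed for *SS4*, a starch synthase, by -0.42 (adjusted p = 0.00553, limma), with 0.14 in *AO*pro(mut)-*AO* shoots and 0.56 in *AO*pro(wt)-*AO* shoots. It differed for *PTST1*, which targets GBSS1 to the granule, by -0.30 (adjusted p = 0.0446, limma), and its second probe did not pass (-0.49, adjusted p = 0.12, limma).

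**Figure D4:**
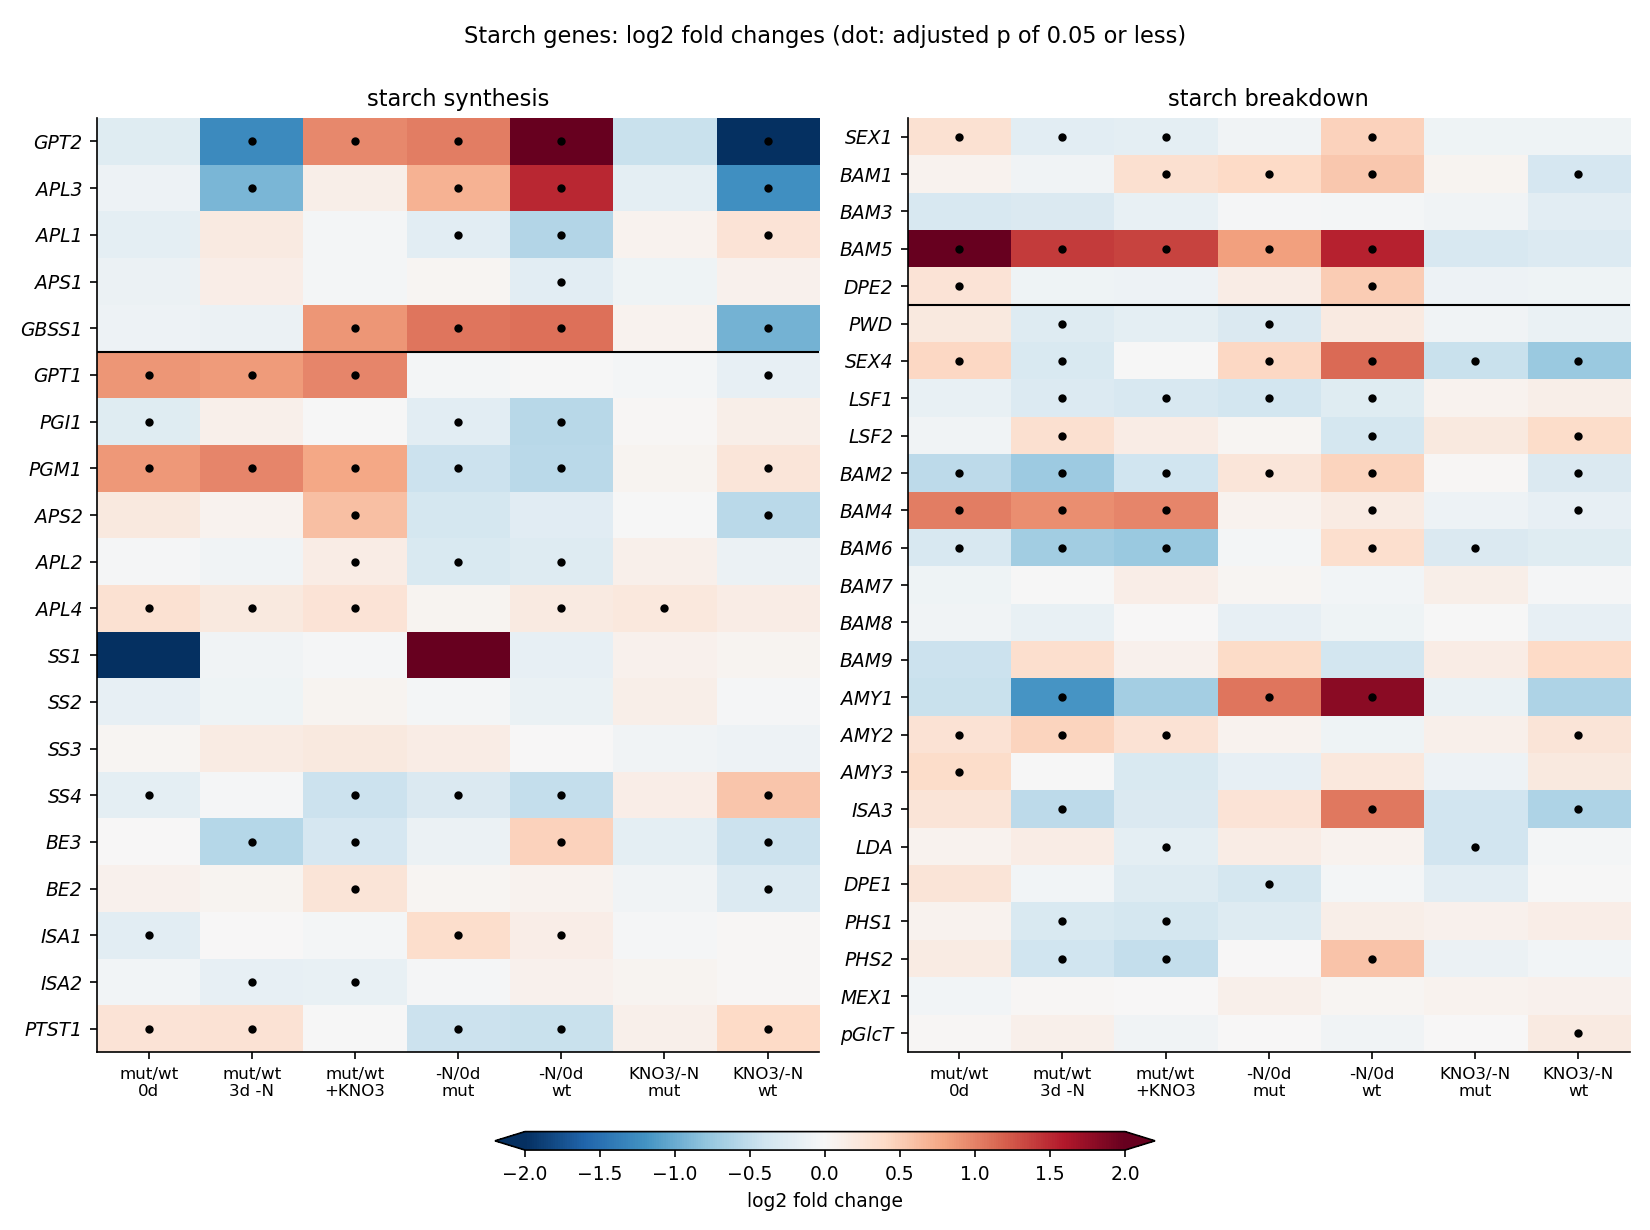
Log2 fold changes (colour, with the scale cut off at both ends) of the 45 starch genes (rows; the 10 genes above the line, the 35 others under it) in 7 comparisons (columns; the first named group over the second), with mut for *AO*pro(mut)-*AO*, wt for *AO*pro(wt)-*AO*, -N for starved and KNO3 for resupplied plants; a dot marks an adjusted p of 0.05 or less. *GPT2*, *APL3*, *BAM5* and *AMY1* have the deepest colours with a dot, and the deep cells of *SS1*, which have none, rest on 1 array at 0d.

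*SS1*, a soluble starch synthase, shows how far 1 spot can move a value. Its level at 0d was 1.73, -9.30 and 1.64 in *AO*pro(mut)-*AO* shoots, against 1.81, 1.83 and 1.88 in *AO*pro(wt)-*AO* shoots, and between 1.52 and 1.83 on the 12 later arrays. The value of -9.30 was the only one of *SS1* not well above background. The line difference of -3.82 at 0d had a standard error of 1.95 and did not pass (adjusted p = 0.144, limma). No probe of the 10 genes had such a value on any array.

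For the 3 genes with the widest range, the genes most like them over the 18 arrays were named by Pearson's r of the normalized log2 level, among 20913 genes. The arrays compared share lines and stages, so that r describes a common pattern of groups. For *BAM5* they were *ALP* (AT5G60360, aleurain-like protease, r = 0.96), *RABC2b* (AT3G09910, a RAB GTPase homolog, r = 0.96) and *BBX29* (AT5G54470, a B-box domain protein, r = 0.95). *ALP* and *BBX29* lie in the raised stretch of chromosome 5, and *RABC2b* is on chromosome 3. For *GPT2* they were AT1G21400 (r = 0.95), AT2G41380 (r = 0.94) and AT5G39090 (r = 0.94). For *APL3* they were AT1G80120 (r = 0.97), AT1G22160 (r = 0.97) and AT1G64360 (r = 0.97).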

How the data were processed

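Each of the 18 scanner files holds 1 array of Cy3-labelled shoot RNA. Per the file headers, the authors' Feature Extraction software (12.1.1.1, scanner G2505B; the methods name other versions) made the processed intensity, background-subtracted and linear. The authors also deposited a table of normalized intensity, which follows the processed signal divided by a value near the 75th percentile; how it was normalized is not stated, and it served as an alternative.

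The log2 processed signal minus the 75th percentile of each array was used, without outlier spots (3 to 91 per array). Probes were matched to genes by RefSeq names (TAIR10.1) for 36163 probes, and 29415 probes of 21059 genes, with signal well above background throughout at least 1 group, were tested. One limma model of 6 group means gave 9 differences and 2 interactions. By rule, the 10 genes, other starch genes passing with a 2-fold change, and the 3 genes most like each of the 3 widest-ranging genes were named, with *AO* as a check; *GPT1*, *PGM1*, *BE3*, *PGI1*, *SS4*, *PTST1* and *SS1* were chosen after their values were seen. One root marker is not reported here. The genes and lists were chosen with earlier results of these data known. In simulated data with 200 changed probes (log2 change 1), 161 to 184 were recovered per contrast, with 6 to 15 other probes called. The simulated noise was normal and independent between probes, and far fewer probes were changed than passed in the data. Smaller changes were not simulated, so these numbers do not carry over to calls below a log2 change of 1. Alternatives are given in the closing section. Software was R 4.3.3, limma 3.58.1, data.table (1.17.8), Python 3.11.15 and matplotlib 3.10.9.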

Additional observations from a re-analysis of the deposited data

Results flagged for a closer look

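The change with a treatment differed between the lines, by limma's test of the interaction (*AO*pro(mut)-*AO* change minus *AO*pro(wt)-*AO* change, adjusted over all probes), for the following genes. With N starvation the difference was -0.81 for *APL3* (adjusted p = 0.00524), -0.53 for *SEX1* (adjusted p = 0.0157) and 0.37 for *APL1* (adjusted p = 0.0479); the last 2 were lost under normexp (-0.46, adjusted p = 0.111, for *SEX1* and 0.43, adjusted p = 0.111, for *APL1*), and *APL1* also under quantile normalization (0.29, adjusted p = 0.0703) and with no filter on dim probes (adjusted p = 0.0688). With KNO3 resupply it was 2.24 for *GPT2* (adjusted p = 0.00956), 1.03 for *APL3* (adjusted p = 0.00133) and 0.39 for *BAM1* (adjusted p = 0.0177), which was lost under normexp (0.41, adjusted p = 0.159).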

How the results depend on the processing

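Of 1012 comparisons of a gene's change under another processing, 969 stayed on their side of the threshold, 21 of the 1012 turned their sign without passing in either setting, 29 calls were lost, 13 were gained and 1 call turned its sign: *APS1* with starvation in *AO*pro(wt)-*AO* shoots, 0.02 under quantile normalization; the cause was not tested. With a minimum log2 fold change of 1 added, as in the methods, the numbers of the 10 genes passing between the lines were 1, 2 and 1 at 0d, when starved and after resupply, those with starvation 2 in *AO*pro(mut)-*AO* and 4 in *AO*pro(wt)-*AO* shoots, that with resupply 2 in *AO*pro(wt)-*AO* shoots, and those against 0d after resupply 1 and 1; fewer genes can pass by construction. Normexp background correction (offset 50) left 1 gene with a starvation interaction (*APL3*; *SEX1* and *APL1* were lost) and ended the resupply interaction of *BAM1*, quantile normalization gave 1 passing with resupply in *AO*pro(mut)-*AO* shoots (*APS1*, -0.18), and the fit of only the arrays compared gave 2 between the lines after resupply. Normexp put the median change of all genes between -0.11 and 0.08 over the contrasts, against -0.04 to 0.02 in the main fit. Values of single genes under normexp include that shift. With 1 array left out at a time, 2 to 5, 3 to 6 and 3 to 5 genes passed between the lines at the 3 stages, 3 to 6 and 9 to 9 with starvation in *AO*pro(mut)-*AO* and *AO*pro(wt)-*AO* shoots, 0 to 0 and 4 to 5 with resupply, 2 to 4 and 4 to 6 against 0d, and 2 to 4 and 3 to 3 for the interactions. Deviations from the group means had a median r of 0.02 over 45 pairs of same-numbered arrays from different groups, with 10 pairs over 0.1. Over 90 pairs with other numbers the median r was -0.03, with 14 pairs over 0.1. For 9 of 18 arrays, the best correlated array of another group had the same number. These values do not settle whether the replicate number pairs the samples, and the main fit did not use it. The fit with the slide as a block ended 3 calls and gained 3, given beside the genes. The fit with the replicate block ended 1 call (*SEX1* after resupply, -0.20, adjusted p = 0.0581, limma) and gained 2 (*APL1* between the lines, -0.19 at 0d and 0.17 when starved), with counts of 4, 5 and 4 between the lines. Of the 66 within-slide values of the 41 passing changes, 66 had the direction of the whole fit. This count is no separate check of the slides, because the values come from the same arrays. Except for *DPE2* between the lines at 0d, the arrays of the groups did not overlap, which fixed the direction. The number of arrays, 3 per group, limits the precision.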
